A study of Mus musculus with 36 samples.

Results

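In the small leucine-rich proteoglycan (SLRP) family, 7 genes, *Dcn* (decorin), *Ogn* (osteoglycin), *Aspn* (asporin), *Lum* (lumican), *Fmod* (fibromodulin), *Bgn* (biglycan) and *Prelp*, were followed through 36 mouse mammary tumors. They were 7 of 12394 genes measured, and were covered by 17 probe sets. The family was chosen by its values in 67NR tumors grown in NSG mice, where *Dcn*, *Ogn* and *Aspn* were higher in BPTF KD tumors than in controls. Every contrast that contains those tumors is therefore given as values without a test, and tests of differences between groups are limited to the other groups.

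67NR and 66cl4 are mouse breast cancer cell lines, and BPTF is the subunit that is unique to the chromatin remodeler NURF. Tumors fell into 8 groups: BPTF KD (n = 6) and control (n = 3) tumors of 67NR and of 66cl4, each in NSG and in BALB/c mice. All cells, controls included, had been transduced with a retrovirus that carried an shRNA, Bptf-sh1 or Bptf-sh2 for BPTF KD and Ctrl-sh1 or Ctrl-sh2 for controls, and had been selected with puromycin. Cells were placed into the fourth mammary fat pad of female BALB/cJ mice or of female NSG mice, a strain without T, B or NK cells, at 6 to 8 weeks of age. 67NR tumors (100000 cells injected) were taken on day 21 and 66cl4 tumors (10000 cells) on day 28, so that cell line, cell number and harvest day cannot be told apart. Which hairpin a tumor carried did not enter the tests, and each tumor counted as 1 independent sample, so that p values reflect the spread between tumors and not between knockdown lines. A tumor is a mixture of cancer and host cells, and fewer cells of a type and less RNA per cell cannot be told apart.

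SLRPs are secreted proteins with a core of leucine-rich repeats, most of which carry chondroitin, dermatan or keratan sulfate chains. They bind collagen and set the width and spacing of its fibrils, and several bind growth factors or their receptors, TGF-beta among them. In mammary tissue and tumors they are made mainly by fibroblasts, pericytes and related stromal cells, and decorin is best known there as a ligand that restrains receptor tyrosine kinases. Decorin and biglycan carry chondroitin or dermatan sulfate, asporin is their close relative without such chains, lumican and fibromodulin carry keratan sulfate, PRELP belongs to the same branch as these, and osteoglycin to another.

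Levels are log2 values after RMA, and a difference of 1 is a 2-fold difference. Medians per array lay between 7.03 and 7.21. The mean of 14 T, B and NK cell genes was 4.84 to 5.42 in NSG tumors and 5.94 to 9.34 in BALB/c tumors, the order that the hosts' labels imply. The mean of 12 mammary epithelial genes was 5.20 to 6.67 in 67NR and 6.10 to 7.33 in 66cl4 tumors. *Bptf*, the targeted gene, was lower in all 6 BPTF KD tumors than in every control only for 66cl4 in BALB/c mice (8.68 to 9.12 in BPTF KD, 9.50 to 10.61 in controls). For 66cl4 in NSG mice 5 of 6 BPTF KD tumors lay below every control, and for 67NR 3 of 6 did in NSG and 1 of 6 in BALB/c mice, where 2 lay above every control. For 67NR, a direction given here is that of the labels and is not backed by the level of *Bptf* RNA in these tumors. The paper examined BPTF protein by Western blot in extracts of the 67NR and 66cl4 cells, a measure unlike the RNA of whole tumors.

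A pair of tumors labelled 67NR BALB/c BPTF KD, replicates 1 and 3, stood apart from the rest of their group. They were recognised by genes outside the family that separate the lines, 58 genes higher in 67NR controls and 52 higher in 66cl4 controls by at least 1.5 log2 units in both hosts. The median of the 58 genes was 8.34 and 7.55 in replicates 1 and 3, 9.18 to 9.65 in the other 4 BPTF KD tumors, and 9.50 to 9.66 in the 3 controls. The median of the 52 genes was 7.12 and 7.02 in replicates 1 and 3, 6.03 to 6.42 in the other 4, and 6.09 to 6.18 in controls. On these lists the 67NR NSG BPTF KD tumors had 8.27 to 8.82 and 6.80 to 7.55, ranges that held replicate 1 on each list. Replicate 3 was within that of the 52 genes only. The 66cl4 tumors of BALB/c mice had 5.90 to 6.20 and 8.97 to 9.80 on the same lists, so neither tumor reached the other line. Replicate 3 also held the most skeletal muscle RNA of the group (mean of 14 genes 11.56, against 5.51 to 7.40 in the other 5), and replicate 1 had the largest excess of 3′ over 5′ signal, a sign of RNA breakdown read from the control probe sets of *Actb* and *Gapdh* (1.315, against 0.545 to 0.795 in the other 5). Tested differences that contain these tumors are given with and without them.

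**Figure D1:**
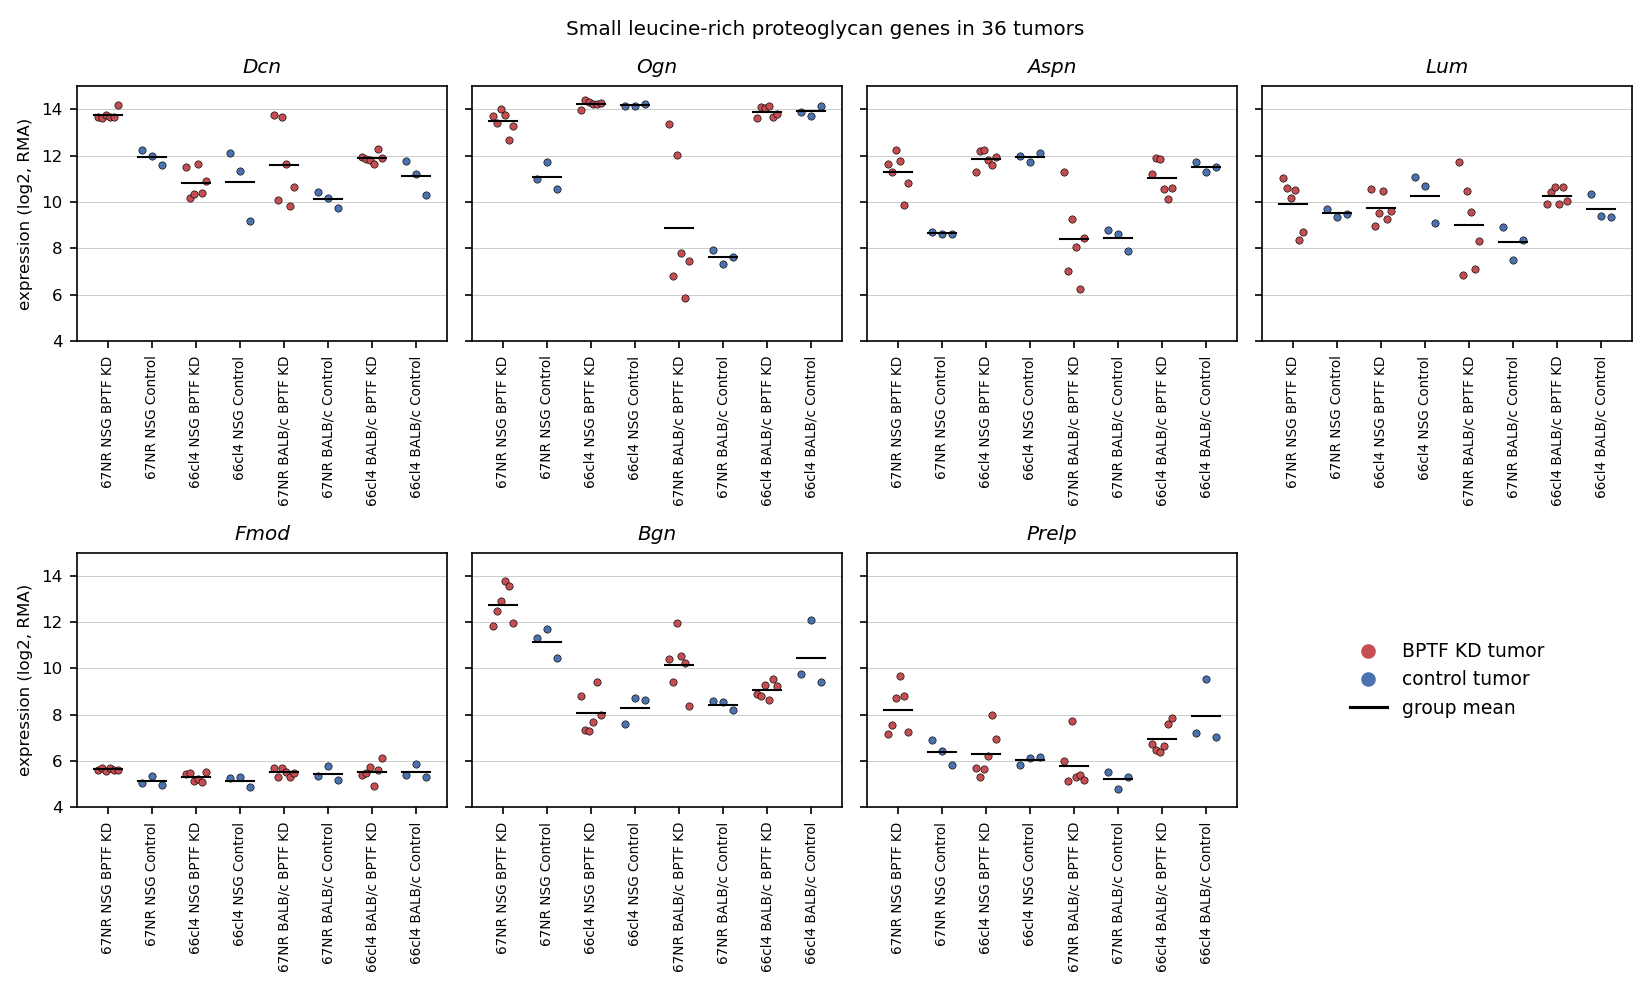
Expression (log2, RMA) of the 7 genes in each of 36 tumors, with BPTF KD tumors in red, control tumors in blue, and a black bar at each group mean (6 BPTF KD and 3 control tumors per line and host). *Dcn* in 67NR NSG tumors lay between 13.60 and 14.18 in BPTF KD and between 11.61 and 12.24 in controls, and the 67NR BALB/c BPTF KD tumors spread over 7.54 log2 units for *Ogn*.

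The genes differed in how widely they varied. Over the 36 tumors *Ogn* covered 8.55 log2 units, from 5.84 to 14.39, *Bgn* 6.45, *Aspn* 6.03, *Dcn* 4.99, *Prelp* 4.89 and *Lum* 4.86. The probe set read for *Fmod* covered 1.28 units, and *Fmod* was the only member among the dimmest 25% of genes. Its 6 probe sets averaged 3.63 to 5.44, and values near that floor carry little information. Another of them spread more widely, from 4.16 to 7.60. Where a gene had several probe sets, the one with the highest mean was read, and the others of *Ogn*, *Aspn* and *Bgn* followed it closely across tumors (r from 0.988 to 0.997), while those of *Prelp* (0.862) and *Fmod* (0.663 to 0.735) did so less. The second probe set of *Prelp* had a narrower range, 5.55 to 7.43, against 4.79 to 9.68 for the one read.

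The order of the groups was different for the genes. *Dcn* was highest in 67NR NSG BPTF KD tumors (13.75 ± 0.21, SD), whose range did not reach that of the next group, 67NR NSG controls (11.95 ± 0.32). The ranges of all neighbours below overlapped, down to 67NR BALB/c controls (10.11 ± 0.34). *Bgn* had the same group on top (12.74 ± 0.80), again clear of the 67NR NSG controls (11.15 ± 0.63), and 66cl4 NSG BPTF KD tumors at the bottom (8.09 ± 0.85). *Ogn* was ordered by cell line instead. The 4 groups of 66cl4 held the first 4 places for *Ogn*, from 14.23 ± 0.15 to 13.90 ± 0.22, with overlapping ranges, followed by 67NR NSG BPTF KD tumors (13.47 ± 0.47), and 67NR BALB/c controls came last (7.62 ± 0.30). For *Aspn* 66cl4 NSG controls led (11.92 ± 0.20), 67NR NSG BPTF KD tumors stood among the 66cl4 groups (11.27 ± 0.84), and the other 67NR groups came last, down to 67NR BALB/c BPTF KD tumors (8.38 ± 1.78). *Prelp* was highest in 67NR NSG BPTF KD tumors (8.19 ± 1.01) and in 66cl4 BALB/c controls (7.93 ± 1.41), whose ranges overlapped. Ranges of neighbouring groups always overlapped for *Prelp*, *Lum* and *Fmod*.

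In 67NR tumors of NSG mice all 7 genes were higher in BPTF KD tumors than in controls on average. *Dcn*, whose protein binds collagen and quenches TGF-beta, had a lowest, median and highest value of 13.60, 13.68 and 14.18 in BPTF KD tumors, and 11.61, 11.99 and 12.24 in the 3 controls. *Ogn*, first described as a bone matrix factor, was at 12.67, 13.56 and 14.00 in BPTF KD tumors, against 10.56, 10.98 and 11.72 in controls. *Aspn*, which also binds collagen and TGF-beta, was at 9.88, 11.47 and 12.24 in BPTF KD tumors, against 8.61, 8.63 and 8.72 in controls. For these 3 genes the lowest BPTF KD tumor was above the highest control. The differences were 1.81 for *Dcn*, 2.38 for *Ogn* and 2.62 for *Aspn* on the log2 scale, which are 3.49-fold, 5.22-fold and 6.14-fold.

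*Bgn*, the close relative of decorin and a ligand of Toll-like receptors, was at 11.84, 12.69 and 13.75 in BPTF KD tumors, against 10.46, 11.31 and 11.69 in controls. *Prelp*, which links collagen to basement membranes, was at 7.18, 8.12 and 9.68 in BPTF KD tumors, against 5.84, 6.44 and 6.89 in controls. They differed by 1.59 for *Bgn* and 1.80 for *Prelp*, without overlap. The second probe set of *Prelp* differed by 0.91. *Fmod* differed by 0.51, also without overlap, and *Lum*, which organises collagen in the cornea and skin, by 0.39 with 4 of 6 BPTF KD tumors above and 2 below every control. The other probe sets of *Fmod* differed by 0.41 to 1.405. In all, 6 of the 7 genes did not overlap between BPTF KD and control tumors, all with BPTF KD higher, where 6.86% of all genes did not overlap. The median over the 7 genes was 1.80, against 0.02 over all genes. This is the contrast from which the family was chosen, and nothing is read from that count or that median.

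Other values moved with this contrast. The median of the 58 genes higher in 67NR controls was 8.27 to 8.82 in 67NR NSG BPTF KD tumors and 9.18 to 9.80 in their controls, and that of the 52 genes higher in 66cl4 controls was 6.80 to 7.55 in BPTF KD tumors and 6.5 to 6.88 in controls. Both lists were chosen on the values of controls, these controls included, and that choice by itself favours gaps in these directions. The mean of 19 fibroblast genes, none of them a member, was 9.13 to 9.86 in BPTF KD tumors and 8.70 to 9.20 in controls. The proliferation genes had a mean of 9.72 to 10.55 in BPTF KD tumors and 10.56 to 10.81 in controls. Of 16 gene lists, 4 had means without overlap between these groups, the family itself and the proliferation genes among them. The others were 19 collagens and matrix partners (9.55 to 10.30 in BPTF KD tumors and 8.74 to 9.33 in controls) and 12 mammary epithelial genes (5.97 to 6.41 in BPTF KD tumors and 5.51 to 5.82 in controls). The part of these in the result was not tested.

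**Figure D2:**
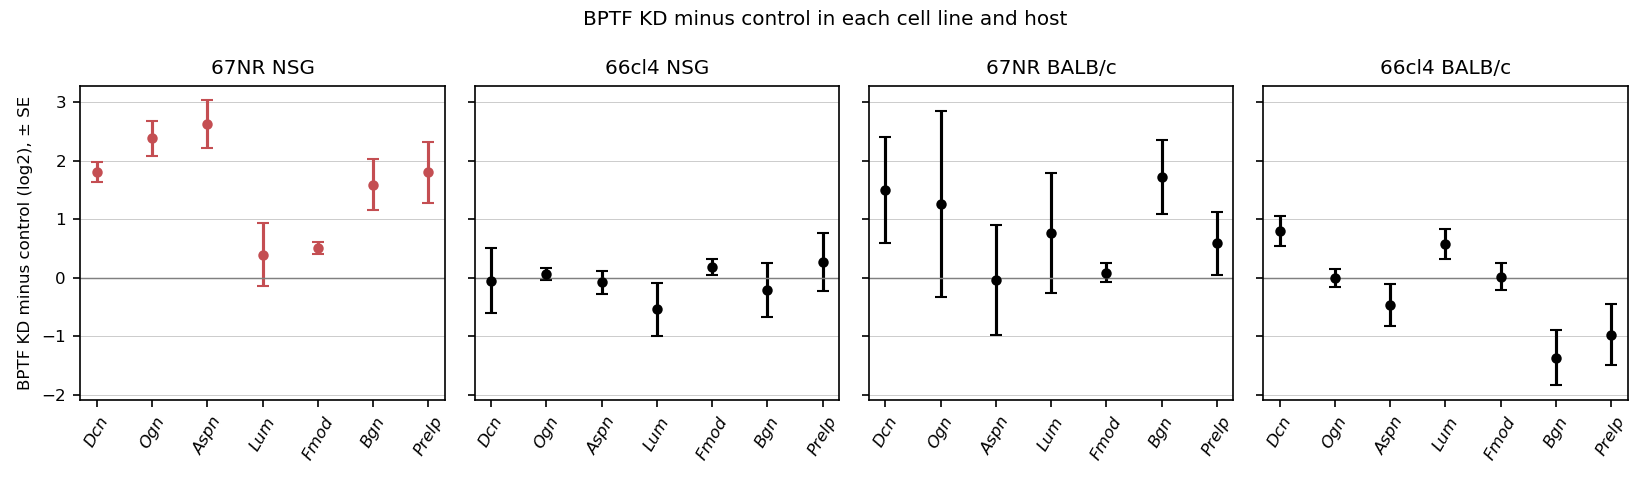
Difference between BPTF KD and control tumors (log2) of the 7 genes in each cell line and host, with the standard error from limma, for 6 BPTF KD and 3 control tumors each. The 67NR NSG values in red chose the family and were not tested, and the values in black include no difference that passed the threshold.

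For 66cl4 in NSG mice the differences between BPTF KD and control tumors lay between -0.55 and 0.26 for the 7 genes. *Dcn* had a lowest, median and highest value of 10.18, 10.63 and 11.63 in BPTF KD tumors, against 9.19, 11.34 and 12.09 in controls. *Ogn* was at 13.96, 14.25 and 14.39 in BPTF KD tumors, against 14.12, 14.13 and 14.23 in controls, and *Aspn* at 11.30, 11.86 and 12.25 in BPTF KD tumors, against 11.70, 11.96 and 12.10 in controls. All 7 genes overlapped between BPTF KD and control tumors (4.37% of all genes did not). *Ogn* differed by 0.07 ± 0.10 (SE), *Aspn* by -0.08 ± 0.20 and *Dcn* by -0.05 ± 0.55, and *Bgn* by -0.22 ± 0.46, *Prelp* by 0.26 ± 0.50 and *Fmod* by 0.18 ± 0.13. The largest difference in size was that of *Lum*, -0.55 ± 0.46 (adjusted p = 0.85 by limma). Limma called 0 of 7 genes and 0% of all genes at an adjusted p under 0.05, and the methods' t-test called 0 of 7 and 0% of all genes. No member had an unadjusted p under 0.05, while 7.68% of all genes had one.

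For 67NR in BALB/c mice the BPTF KD tumors did not move together. *Dcn* was at 13.74 and 13.68 in BPTF KD replicates 1 and 3 and at 9.83, 10.10, 10.66 and 11.62 in the other 4, against 9.75, 10.15 and 10.43 in controls. *Ogn* was at 13.38 and 12.02 in replicates 1 and 3 and at 5.84, 6.79, 7.46 and 7.80 in the other 4, against 7.32, 7.63 and 7.91 in controls. *Aspn* was at 11.28 and 9.27 in replicates 1 and 3 and at 6.22, 7.03, 8.07 and 8.43 in the other 4, against 7.86, 8.62 and 8.78 in controls. The pair of tumors that stood apart thus held the levels of 67NR NSG BPTF KD tumors for *Dcn*. For *Ogn* (12.67 to 14.00 in those NSG tumors) and *Aspn* (9.88 to 12.24) replicate 1 lay within their range and replicate 3 below it. Of the other 4 tumors, 2 lay below every control for *Ogn* and for *Aspn*. *Lum* followed the same division, with 11.72 and 10.49 in replicates 1 and 3, 6.86 to 9.58 in the other 4, and 7.49 to 8.92 in controls.

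*Bgn* behaved otherwise. It was at 8.36, 10.33 and 11.95 (lowest, median and highest) in 67NR BALB/c BPTF KD tumors, against 8.19, 8.55 and 8.58 in controls, and 5 of 6 BPTF KD tumors lay above every control. Its difference was 1.71 ± 0.63 (SE), or 3.28-fold, and did not pass (adjusted p = 0.609 by limma). *Dcn* differed by 1.495 ± 0.911 (adjusted p = 0.705), *Ogn* by 1.26 ± 1.59 (adjusted p = 0.856) and *Aspn* by -0.04 ± 0.94 (adjusted p = 0.996). *Lum* (0.76 ± 1.03), *Prelp* (0.58 ± 0.54) and *Fmod* (0.08 ± 0.16) had adjusted p values of 0.865, 0.802 and 0.917 by limma. All 7 genes overlapped between BPTF KD and control tumors, as against 5.96% of all genes that did not. Limma called 0 of 7 members and 0% of all genes, the methods' t-test called 0 of 7 and 0% of all genes, and 1 of 7 members had an unadjusted p under 0.05, as did 7.75% of all genes.

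Without replicates 1 and 3, a choice made after the data had been seen and on genes outside the family, *Ogn* differed by -0.65, *Lum* by -0.28 and *Aspn* by -0.98, and *Dcn* by 0.44. *Bgn* kept a difference of 1.20, *Prelp* had 0.051 and *Fmod* -0.016, and limma called 0 of 7 members and 0% of all genes. The fibroblast mean was 9.72 and 9.53 in replicates 1 and 3, 8.10 to 8.83 in the other 4 BPTF KD tumors and 8.06 to 8.26 in controls. The T, B and NK cell mean was 6.79 to 9.34 in the 6 BPTF KD tumors and 6.34 to 6.91 in controls. The part of either in the values of the members was not tested. In the same tumors *Prelp* was at 7.73 in replicate 3 and at 5.16 to 6.0 in the other 5 BPTF KD tumors, against 4.79 to 5.53 in controls.

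**Figure D3:**
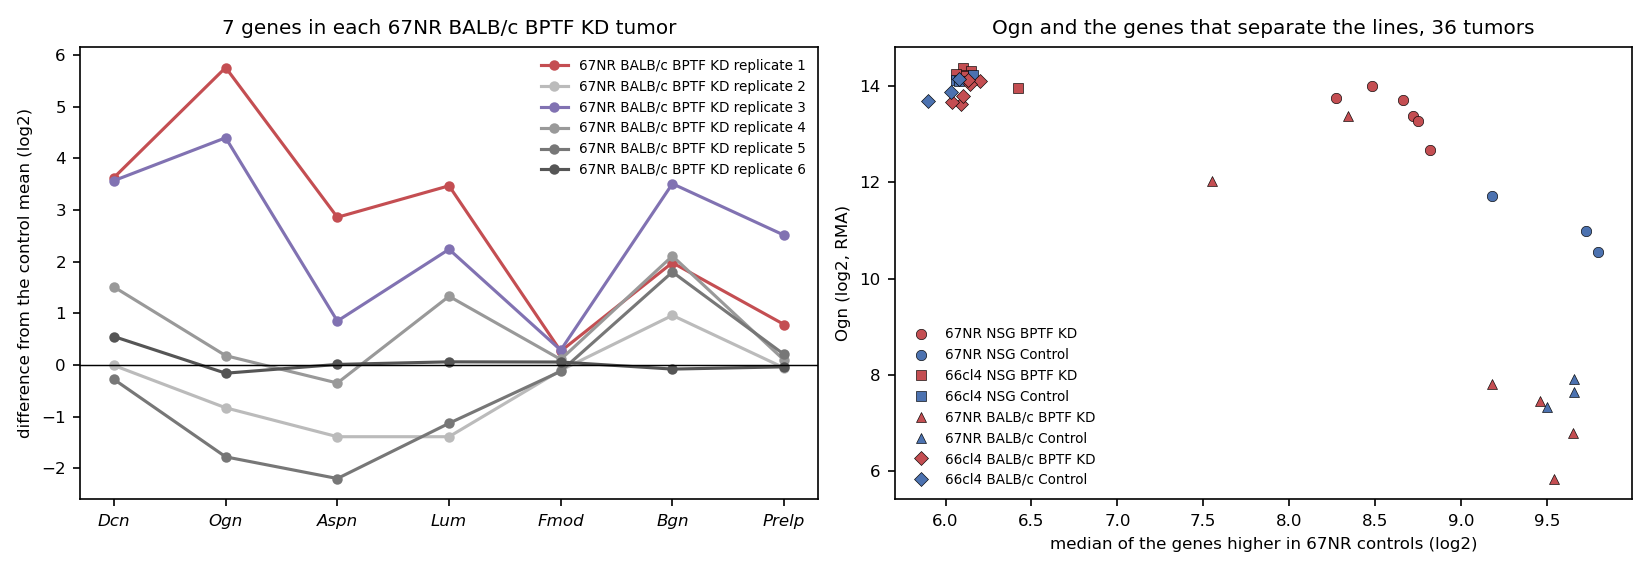
Left, the difference from the mean of 3 controls (log2) for the 7 genes in each of 6 67NR BALB/c BPTF KD tumors. Right, *Ogn* (log2) against the median of the 58 genes that were higher in 67NR controls (log2) in 36 tumors, with the shape giving line and host and the color BPTF KD (red) or control (blue). Replicates 1 and 3 lay at 13.38 and 12.02 for *Ogn* and at 8.34 and 7.55 for the line genes, to the left of the other 67NR BALB/c tumors.

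For 66cl4 in BALB/c mice *Dcn* and *Bgn* pointed in opposite directions without passing the threshold. *Dcn* had a lowest, median and highest value of 11.64, 11.86 and 12.27 in BPTF KD tumors, against 10.30, 11.21 and 11.78 in controls. Its difference was 0.80 ± 0.26 (SE) with 5 of 6 BPTF KD tumors above every control (adjusted p = 0.0978 by limma). *Lum* differed by 0.57 ± 0.26 (adjusted p = 0.187). *Bgn* was at 8.62, 9.07 and 9.54 in BPTF KD tumors, against 9.43, 9.76 and 12.10 in controls, a difference of -1.37 ± 0.48 (adjusted p = 0.114). *Prelp* was at 6.38, 6.71 and 7.86 in BPTF KD tumors, against 7.02, 7.21 and 9.55 in controls, a difference of -0.97 ± 0.53 (adjusted p = 0.272). The highest control was replicate 2 for both genes, and without it *Bgn* differed by -0.53 and *Prelp* by -0.16. The same control had the highest mean of 14 skeletal muscle genes in its group (10.91, against 8.63 and 9.56), whose part was not tested.

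*Ogn* in 66cl4 BALB/c tumors differed by -0.01 ± 0.15, *Fmod* by 0.02 ± 0.23, and *Aspn* by -0.475 ± 0.359, with 4 of 6 BPTF KD tumors below and 2 above every control. The T, B and NK cell mean was 6.48 to 7.28 in these BPTF KD tumors and 5.94 to 6.28 in controls, and that of 18 receptors and growth factors that SLRPs bind was 7.59 to 7.72 in BPTF KD tumors and 7.76 to 8.14 in controls. The part of either was not tested. Limma called 0 of 7 genes where it called 0.186% of all genes, the methods' t-test called 0 of 7 and 0% of all genes, and 3 of 7 had an unadjusted p under 0.05, against 25.76% of all genes. All 7 overlapped between BPTF KD and control tumors, where 8.67% of all genes did not. Leaving out control replicate 1 brought *Dcn* (1.14, adjusted p = 0.0116) and *Lum* (0.91, adjusted p = 0.0226) past the threshold of limma, and the share of all genes called was then 17.8%.

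Whether the BPTF KD effect differed between cell lines was tested in BALB/c mice as an interaction. *Bgn* had the largest value, 3.08 ± 0.86 (67NR effect minus 66cl4 effect, SE), since its difference was positive in 67NR and negative in 66cl4, but its adjusted p was 0.485 by limma (unadjusted p = 0.00227). Without 66cl4 control replicate 2 it was 2.25, and without both 67NR tumors that stood apart it was 2.56 (adjusted p = 0.168). *Prelp* had 1.56 ± 0.82, *Ogn* 1.27 ± 1.68 and *Dcn* 0.70 ± 1.00, and *Aspn*, *Lum* and *Fmod* lay between 0.06 and 0.44. Limma called 0 of 7 members and 0% of all genes, 1 of 7 had an unadjusted p under 0.05 (9.64% of all genes), and 1 fit of all 36 tumors called 0 of 7 and 0.00807% of all genes. With array weights *Bgn* passed (2.68, adjusted p = 0.00733 by limma), where 17.7% of all genes were called. Without both 67NR tumors that stood apart *Prelp* had 1.02, and *Ogn* (-0.64), *Dcn* (-0.36), *Aspn* (-0.51), *Lum* (-0.86) and *Fmod* (-0.034) turned negative, with 0 of 7 members called. Whether the effect differed between hosts was tested in 66cl4, with NSG effect minus BALB/c effect. *Lum* had -1.12 ± 0.57 (adjusted p = 0.427 by limma) and *Dcn* -0.85 ± 0.67 (adjusted p = 0.565), and *Prelp* and *Bgn* had 1.24 ± 0.79 and 1.15 ± 0.72. *Ogn*, *Aspn* and *Fmod* lay between 0.08 and 0.39. Here too limma called 0 of 7 members and 0% of all genes. No member had an unadjusted p under 0.05 (11.91% of all genes), and 1 fit of all 36 tumors called 0 of 7 and 0% of all genes.

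Cell line separated part of the family strongly. In controls from BALB/c mice *Ogn*, the gene with the widest range, had 7.32, 7.63 and 7.91 in 67NR tumors against 13.69, 13.88 and 14.15 in 66cl4 tumors, a difference of -6.29 ± 1.37 (67NR minus 66cl4, SE), or 78.1-fold (adjusted p = 0.00525 by limma). *Aspn* levels were 7.86, 8.62 and 8.78 in 67NR against 11.29, 11.52 and 11.71 in 66cl4, a difference of -3.09 ± 0.87 (adjusted p = 0.0243). *Prelp* levels were 4.79, 5.33 and 5.53 in 67NR against 7.02, 7.21 and 9.55 in 66cl4, a difference of -2.71 ± 0.67 (adjusted p = 0.0114). Its second probe set differed by -1.01 (adjusted p = 0.0058 by limma over all probe sets). These 3 genes were lower in all 3 67NR controls than in any 66cl4 control. *Bgn* (-1.99 ± 0.70, adjusted p = 0.0701) and *Lum* (-1.43 ± 0.91, adjusted p = 0.362) did not pass, though their ranges did not overlap either, as was true of 40.7% of all genes. *Dcn* differed by -0.99 ± 0.82 and *Fmod* by -0.10 ± 0.24. Limma thus called 3 of 7 members, all lower in 67NR, against 14.0% of all genes in either direction. Without both 67NR BPTF KD tumors that stood apart, which enter this fit through its spread, 4 of 7 were called, *Bgn* being added (adjusted p = 0.0224), against 22.4% of all genes. *Prelp* did not pass without 66cl4 control replicate 2 (-1.90, adjusted p = 0.074) or without 67NR control replicate 2 (adjusted p = 0.0535), and *Aspn* did not pass when any 1 of the 6 controls was left out (adjusted p from 0.0532 to 0.0936). The mean of 14 skeletal muscle genes was 5.57 to 5.73 in 67NR and 8.63 to 10.91 in 66cl4 controls, and its part in the values of *Prelp* was not tested.

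In BPTF KD tumors from BALB/c mice *Ogn* was at 5.84, 7.63 and 13.38 (lowest, median and highest) in 67NR and at 13.64, 13.93 and 14.13 in 66cl4. It was lower in all 6 67NR tumors than in any 66cl4 tumor, with a difference of -5.02 ± 0.97 (adjusted p = 0.00159 by limma), and was the only member without overlap, against 6.78% of all genes. *Aspn* levels were 6.22, 8.25 and 11.28 in 67NR against 10.14, 10.89 and 11.88 in 66cl4, and *Aspn* fell by 2.65 ± 0.62 in 67NR relative to 66cl4 (adjusted p = 0.00589). *Bgn* had the other sign, with 8.36, 10.33 and 11.95 in 67NR and 8.62, 9.07 and 9.54 in 66cl4 (1.09 ± 0.49, adjusted p = 0.134). *Prelp* (-1.15 ± 0.47), *Lum* (-1.24 ± 0.65), *Dcn* (-0.29 ± 0.58) and *Fmod* (-0.03 ± 0.17) did not pass either. Limma called 2 of 7 members, both lower in 67NR, against 19.9% of all genes in either direction. Without both 67NR tumors that stood apart *Ogn* differed by -6.93 and *Aspn* by -3.59, and 5 of 7 members passed, all lower in 67NR, against 34.2% of all genes in either direction. The added members were *Lum* (-2.29), *Prelp* (-1.69) and *Dcn* (-1.34), while *Bgn* differed by 0.57 and *Fmod* by -0.13.

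**Figure D4:**
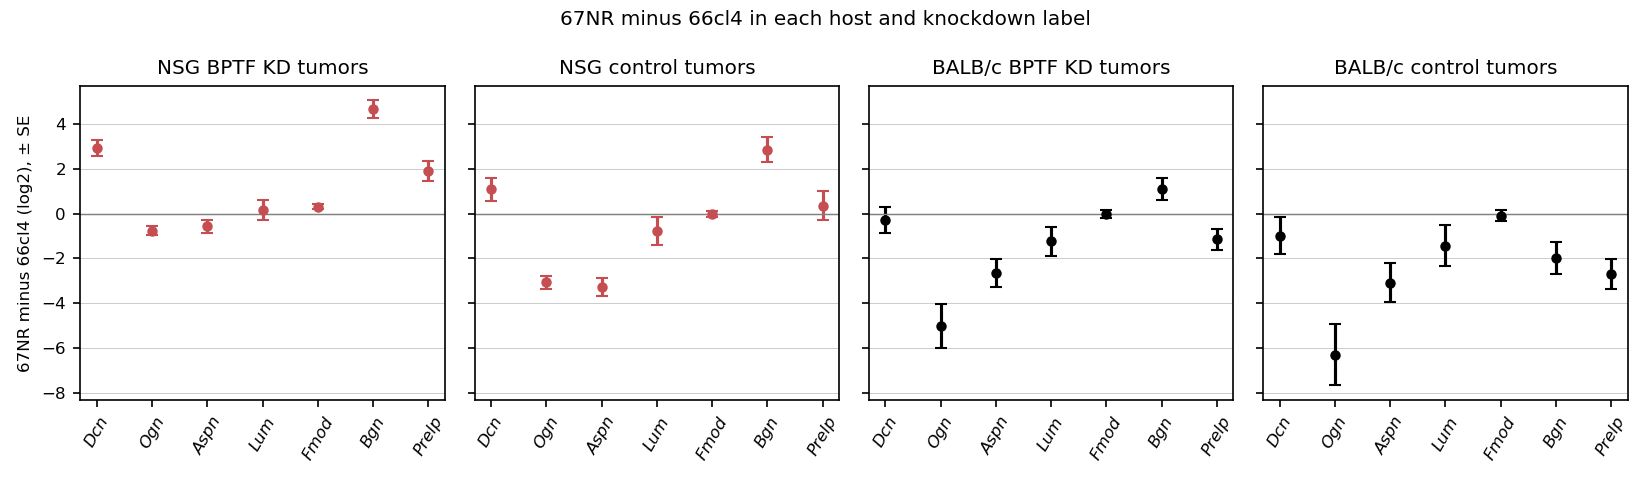
Difference between 67NR and 66cl4 tumors (log2) of the 7 genes in NSG and BALB/c mice and in BPTF KD and control tumors, with the standard error from limma (6 BPTF KD or 3 control tumors per line). NSG values, in red, include the tumors that chose the family and were not tested. *Ogn* was lower in 67NR in each panel, from -6.29 in BALB/c controls to -0.76 in NSG BPTF KD tumors.

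In NSG mice, given as values only, *Ogn* averaged 13.47 ± 0.47 in 67NR and 14.23 ± 0.15 in 66cl4 BPTF KD tumors (SD, n = 6 each), and 11.09 ± 0.59 in 67NR and 14.16 ± 0.06 in 66cl4 controls (n = 3 each). *Aspn* averaged 11.27 ± 0.84 in 67NR and 11.84 ± 0.36 in 66cl4 BPTF KD tumors, and 8.65 ± 0.06 in 67NR and 11.92 ± 0.20 in 66cl4 controls. *Bgn* ran the other way, with 12.74 ± 0.80 in 67NR and 8.09 ± 0.85 in 66cl4 BPTF KD tumors, and 11.15 ± 0.63 in 67NR and 8.31 ± 0.63 in 66cl4 controls. In BPTF KD tumors *Dcn*, *Bgn* and *Fmod* did not overlap between the lines (22.0% of all genes did not), with 67NR higher. In controls *Bgn*, higher in 67NR, and *Ogn* and *Aspn*, lower in 67NR, did not overlap (49.2% of all genes did not).

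*Ogn* and *Aspn* are neighbours on chromosome 13, in a cluster of SLRP genes with *Ecm2* and *Omd* (osteomodulin, a keratan sulfate proteoglycan of bone). By the probe sets read, *Omd* had the largest line difference of the family, -6.80 ± 0.54 in controls and -5.83 ± 0.38 in BPTF KD tumors of BALB/c mice (67NR minus 66cl4, SE, adjusted p = 4.94e-07 and 2.11e-08 by limma). The other probe set of *Ogn* differed by -7.00 in these controls and by -5.37 in these BPTF KD tumors. *Omd* averaged 4.41 ± 0.15 in 67NR and 11.21 ± 0.76 in 66cl4 BALB/c controls (SD, n = 3 each), and 7.35 ± 0.81 in BPTF KD and 5.70 ± 0.31 in control 67NR tumors of NSG mice. Its range was 5.98 to 8.20 in these BPTF KD tumors and 5.36 to 5.95 in these controls. *Kera* and *Epyc*, beside *Dcn* and *Lum* on chromosome 10, stayed between 3.52 and 4.58 in all 36 tumors, where no step could be seen. Because these 3 genes of chromosome 13 shared the line difference, the 250 bases before each start are shown, on the + strand, from RefSeq (GRCm38.p6), with matches to TATAAA on either strand in capitals. The windows are chr13:49607765-49608014 for *Ogn*, chr13:49544193-49544442 for *Aspn* and chr13:49582212-49582461 for *Omd*.
Ogn: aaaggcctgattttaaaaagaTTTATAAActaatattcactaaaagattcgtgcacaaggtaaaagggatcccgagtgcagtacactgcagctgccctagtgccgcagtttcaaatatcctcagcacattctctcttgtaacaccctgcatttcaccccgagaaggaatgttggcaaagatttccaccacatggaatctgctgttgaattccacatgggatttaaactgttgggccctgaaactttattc
Aspn: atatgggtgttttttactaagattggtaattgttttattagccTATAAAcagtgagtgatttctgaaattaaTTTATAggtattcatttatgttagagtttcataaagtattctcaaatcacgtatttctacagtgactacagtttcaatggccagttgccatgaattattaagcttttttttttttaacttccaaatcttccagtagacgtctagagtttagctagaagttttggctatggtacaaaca
Omd: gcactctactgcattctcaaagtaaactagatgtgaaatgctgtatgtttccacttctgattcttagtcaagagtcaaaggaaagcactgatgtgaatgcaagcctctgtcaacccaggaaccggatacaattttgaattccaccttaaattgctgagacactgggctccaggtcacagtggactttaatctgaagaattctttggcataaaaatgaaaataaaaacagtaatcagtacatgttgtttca
TATAAA was found 2 times each in *Ogn*, as overlapping matches of both strands, and in *Aspn*, and not in *Omd*, and 12.4% of 32851 promoter windows of the same length held it. The motifs CAGACA (17.1% of windows) and TGANTCA (6.75%), searched on both strands, were in none of the 3. The share of G and C was 42.0% for *Ogn*, 30% for *Aspn* and 38.4% for *Omd*, and 15.9%, 1.47% and 9.05% of windows, in the same order, had less. Entries were found for 5 of the 7 members, and the windows of *Bgn*, *Prelp* and *Fmod* held none of the 3 motifs. These are descriptions of letters, not of binding.

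Host was compared in 66cl4, as NSG minus BALB/c. In controls *Bgn* was at 7.59, 8.62 and 8.72 in NSG and at 9.43, 9.76 and 12.10 in BALB/c mice, a difference of -2.12 ± 0.59 (SE, adjusted p = 0.022 by limma). *Prelp* was at 5.82, 6.12 and 6.18 in NSG and at 7.02, 7.21 and 9.55 in BALB/c mice (-1.89 ± 0.65, adjusted p = 0.0471). Limma called *Bgn* and *Prelp*, 2 of 7, both lower in NSG, against 20.4% of all genes, and the other 5 members differed by -0.39 (*Fmod*) to 0.59 (*Lum*). Neither *Bgn* nor *Prelp* passed without BALB/c control replicate 2 (*Bgn* -1.29, adjusted p = 0.152, and *Prelp* -1.08, adjusted p = 0.288), and the methods' t-test called 0 of 7 and 0% of all genes, and 1 fit of all 36 tumors 0 of 7 and 2.57% of all genes. *Bgn*, *Prelp* and *Fmod* did not overlap between hosts, all lower in NSG, and 35.0% of all genes did not. A second probe set of *Prelp* differed by -0.57 (adjusted p = 0.0662 over all probe sets), and 1 of the other probe sets of *Fmod* by -0.76 (adjusted p = 0.00771). *Bgn* also did not pass without NSG control replicate 1 (adjusted p = 0.0965), and *Prelp* did not pass in 13 of 18 fits that left out 1 tumor. All 14 skeletal muscle genes were also lower in these NSG tumors by limma, with a median of -3.99, and the list mean was 5.17 to 6.78 in NSG and 8.63 to 10.91 in BALB/c controls. Its part in the result was not tested.

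In 66cl4 BPTF KD tumors *Ogn* had a lowest, median and highest value of 13.96, 14.25 and 14.39 in NSG mice and of 13.64, 13.93 and 14.13 in BALB/c mice, a difference of 0.33 ± 0.10 (adjusted p = 0.0513 by limma). Its other probe set differed by 0.51 and passed (adjusted p = 0.0165 over all probe sets), so that the call depends on the probe set read. *Aspn* had 0.81 ± 0.26 (adjusted p = 0.0525) and *Dcn* -1.07 ± 0.39 (adjusted p = 0.0855), with all 6 NSG tumors below every BALB/c tumor for *Dcn* alone (5.12% of all genes did not overlap). The 2 ranges of *Dcn* nearly touched, at 10.18 to 11.63 in NSG and 11.64 to 12.27 in BALB/c mice. *Ogn*, *Aspn* and *Dcn* lay next to the threshold, and *Bgn* (-0.97 ± 0.42), *Prelp* (-0.65 ± 0.46), *Lum* (-0.53 ± 0.33) and *Fmod* (-0.22 ± 0.16) lay further from it. The second probe set of *Prelp* showed no difference between hosts here. The skeletal muscle mean was 5.20 to 7.26 in these NSG tumors and 6.64 to 11.16 in BALB/c tumors, and its part was not tested. Limma called 0 of 7, against 10.7% of all genes, the methods' t-test called 1 of 7 and 8.54% of all genes, and 4 of 7 had an unadjusted p under 0.05, as 24.62% of all genes had. For 67NR, given as values only, *Ogn* averaged 13.47 ± 0.47 in NSG and 8.88 ± 3.06 in BALB/c BPTF KD tumors, and 11.09 ± 0.59 in NSG and 7.62 ± 0.30 in BALB/c controls. *Bgn* averaged 12.74 ± 0.80 in NSG and 10.15 ± 1.20 in BALB/c BPTF KD tumors, and 11.15 ± 0.63 in NSG and 8.44 ± 0.22 in BALB/c controls. In 67NR controls *Dcn*, *Ogn*, *Lum*, *Bgn* and *Prelp* did not overlap between hosts, all higher in NSG, and 33.0% of all genes did not. In 67NR BPTF KD tumors all 7 members overlapped, where 8.46% of all genes did not.

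Of 17 listed SLRP genes 12 were measured. The 5 that are not members gave little beyond *Omd*. *Kera*, *Epyc*, *Optc* and *Chad*, genes of cornea, cartilage and eye, stayed at or below 5.89 in every tumor, and none of them passed the threshold in any of the 9 tested comparisons. Enzymes that build chondroitin, dermatan and keratan sulfate were split between the lines. In BALB/c controls 3 of 21 measured were higher and 2 lower in 67NR than in 66cl4, with a median of 0.10, against 0.00 over all genes, of which 14.0% were called. *Csgalnact1*, which starts chondroitin sulfate chains, was higher in 67NR by 1.98 ± 0.28 (SE, adjusted p = 0.000147 by limma), and *Chst1*, a keratan sulfate sulfotransferase, by 2.78 ± 0.61 (adjusted p = 0.00512). In BPTF KD tumors *Csgalnact1* differed by 2.05 ± 0.20 (adjusted p = 1.77e-06).

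Among 15 proteases that cleave SLRPs, 1 was higher and 2 were lower in 67NR BALB/c controls, where 14.0% of all genes were called. *Adamts5* and *Adamts1*, aggrecanases, were the lower ones, with differences of -4.25 ± 0.45 (adjusted p = 1.1e-05 by limma) and -2.37 ± 0.31 (adjusted p = 7.69e-05), and *Mmp3* was higher by 2.07 ± 0.43 (adjusted p = 0.00394). Of 18 receptors and growth factors that SLRPs bind, 5 were lower and 0 higher in 67NR BALB/c controls, led by *Bmp4* (-4.71 ± 0.28, adjusted p = 2.06e-08) and *Tgfb3* (-1.72 ± 0.27, adjusted p = 0.000381). Of 19 collagens and matrix partners 6 were lower and 0 higher in these controls, with a median of -0.97, among them *Eln*, which encodes elastin (-2.97 ± 0.51, adjusted p = 0.000816), and *Thbs1* (-3.35 ± 0.58, adjusted p = 0.000835). In BALB/c BPTF KD tumors 1 of these 19 was lower and 2 were higher in 67NR, with a median of 0.05. Of the 18 receptors and growth factors 5 were lower and 1 was higher there, where 19.9% of all genes were called. In the comparisons of BPTF KD with control tumors limma called 0 genes of these lists in 67NR BALB/c, 66cl4 BALB/c and 66cl4 NSG tumors. In 66cl4 controls 4 of 19 collagens and matrix partners were lower and 0 higher in NSG than in BALB/c mice, a share close to the 20.4% of all genes called there, and *Col6a2* was one of them (-1.71 ± 0.30, adjusted p = 0.00278). In 66cl4 BPTF KD tumors 6 of the 19 were lower and 0 higher in NSG mice, where 10.7% of all genes were called.

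How the genes varied together was described within groups, after the mean of each of 8 groups had been taken off. Over 36 tumors *Ogn* and *Aspn* had r = 0.83, *Dcn* and *Lum*, neighbours on chromosome 10, r = 0.80, and *Bgn* and *Prelp*, on different chromosomes, r = 0.81. The points share arrays and groups, and the 67NR BALB/c BPTF KD tumors weigh heavily. In the other 30 tumors these pairs had r = 0.63, 0.54 and 0.82, whereas *Dcn* and *Ogn* had 0.74 in all tumors and -0.15 in the 30. In both sets *Ogn* with *Aspn*, *Dcn* with *Lum* and *Bgn* with *Prelp* had the 3 highest r of all pairs of members, and *Fmod* was in none of them.

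**Figure D5:**
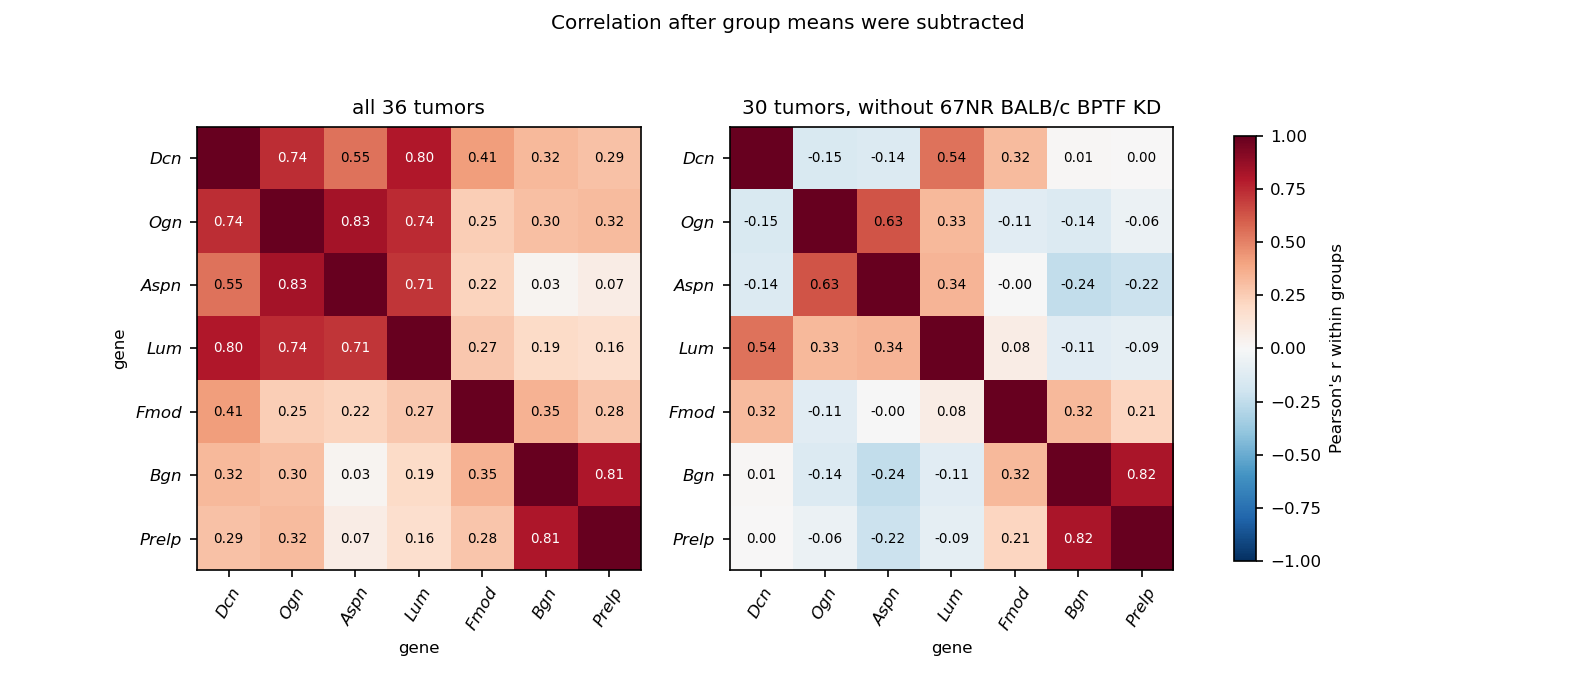
Pearson's r between the 7 genes (both axes) after the mean of each group was subtracted, in 36 tumors (left) and in the 30 tumors without the 67NR BALB/c BPTF KD group (right). *Bgn* and *Prelp* had 0.81 and 0.82, and *Dcn* and *Ogn* 0.74 and -0.15.

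The genes most like each member were named by the highest r within groups over the 36 tumors. *Dcn* was most like *Ccl11* (0.90 in 36 and 0.76 in the 30 tumors), a chemokine for eosinophils, followed by *Efemp1*, *Fndc1*, *Lox* and *Igfbp6*, with r down to 0.86 in 36 and to 0.63 in the 30 tumors. *Lum* was most like *Ndn* (0.89 and 0.76), followed by *Tppp3*, *Plac8*, *Gpx7* and *Sgce*. *Bgn* was most like *Col6a2*, a chain of collagen VI (0.88 and 0.82), with *Plekha2*, *Prelp*, *Bmpr2* and *Acta2*, the smooth muscle actin, next. *Prelp* was most like *Bgn*, then *C1qtnf1*, *Slc44a2*, *Col6a2* and *Hnrnpk*. *Prelp* and *Bgn* thus named each other. *Ogn* was most like *Pkia* (0.97 and 0.76), an inhibitor of protein kinase A, followed by *Rpl39l*, *Matn2*, *Edil3* and *Tubb2b*. In the 30 tumors r with these followers of *Pkia* fell to between 0.41 (*Rpl39l*) and 0.74 (*Edil3*). *Aspn* was most like *Mat2b* (0.88 and 0.72), followed by *Fkbp7*, *Rpl22l1*, *Fli1* and *Ndufc2*, which had 0.51 (*Ndufc2*) to 0.78 (*Fli1*) in the 30 tumors. *Fmod* had the lowest values, with *Mfsd4a* at 0.71, *Plaat1*, *Tnmd*, *Trim54* and *Plin5*.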

How the data were processed

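RNA of 36 tumors had been hybridised to Affymetrix mouse expression arrays, 1 array per tumor. The deposited log2 values had been background-corrected, normalized and summarised per probe set by the authors with RMA, whose version is not given in the sources used here, and no array had a missing value. RMA brings arrays near a shared distribution, and the medians of the deposited arrays lay between 7.03 and 7.21. A difference is therefore relative to the other genes of its tumor, and the number of arrays limits the precision. Of 22690 probe sets 20393 carried 1 symbol in the platform annotation, 691 several and 1606 none. Symbols were updated by Entrez ID through RefSeq (20364 found), and the probe set with the highest mean over all tumors was read for each of 12394 genes.

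Groups came from the labels. Each comparison of BPTF KD with control was fitted with limma 3.58.1 (R 4.3.3) on its 9 tumors, and line, host and interaction contrasts on 18 tumors in 4 groups, and p values of all genes were adjusted together (Benjamini-Hochberg), with calls made under 0.05. In all, 9 comparisons were tested, and 5 contrasts that contain 67NR NSG tumors were given as values. The script was checked on simulated data with known changes. The members and the 16 gene lists were chosen with earlier results of these data known. Members are all described. From the other lists, up to 4 genes with the smallest adjusted p in a comparison could be named. The genes most like a member are the 5 with the highest r after the group means were subtracted. Other settings tried were the methods' t-test, 1 model for the 36 tumors at once, a filter on the dimmest 25% of genes, other scalings, the mean of all probe sets, array weights, an RNA integrity covariate, the replicate number as a block, and each tumor left out. The line genes and the removal of both 67NR BALB/c tumors were chosen after seeing the data. Promoter windows are from RefSeq. Python 3.11.15, pandas 2.3.3, numpy 2.4.6, scipy 1.17.1 and matplotlib 3.10.9 were used.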

Additional observations from a re-analysis of the deposited data

Results flagged for a closer look

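In 28 sets of 6 BPTF KD tumors (7 genes in 4 groups), 2 held a tumor whose gap to its nearest neighbour was large against the range of the set. Chance alone flags about 1 in 20 sets. *Dcn* was at 14.18 in 67NR NSG BPTF KD replicate 6, against 13.60 to 13.73 in the other 5, and the gap was 0.776 of the range. That set belongs to the values that chose the family, and nothing is read from its flag. *Prelp* was at 7.73 in 67NR BALB/c BPTF KD replicate 3, one of the tumors that stood apart and the one with the most skeletal muscle RNA, against 5.16 to 6.0 in the other 5, and the gap was 0.673 of the range. In the report no member passed the tests of whether the BPTF KD effect differed between lines or hosts, and with array weights *Bgn* passed that between lines (2.68, adjusted p = 0.00733 by limma).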

How the results depend on the processing

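Counts below are of the 7 members past the threshold, each with the share of all genes past it. With array weights, 1 passed for BPTF KD in 67NR BALB/c tumors (*Bgn*, 1.81; 9.05% of all genes), 2 for BPTF KD in 66cl4 BALB/c tumors (*Dcn*, 1.34, and *Lum*, 0.84; 25.2%), 1 for the line difference of the BPTF KD effect (*Bgn*, 2.68; 17.7%), 5 each for the line differences of BPTF KD (36.8%) and of control tumors (4468 of 12394 genes), and 3 for the host difference of BPTF KD tumors (19.1%). That host difference, with 0 members in the report, gave 1 with the methods' t-test (8.54%) or the mean of all probe sets (11.4%), 2 without the dimmest 25% of genes (13.1%), with another quantile normalization (11.4%) or with array medians subtracted (12.1%), 3 with the replicate block (10.6%) and 4 with the integrity covariate (22.5%). The host difference of controls gave 0 with the methods' t-test (0%) or 1 fit of all 36 tumors (2.57%) and 1 with another quantile normalization (19.3%). The line difference of BPTF KD tumors gave 1 with the methods' t-test (11.3%) and 5 without both tumors that stood apart (34.2%). With each tumor left out in turn, the counts were 0 to 2 for BPTF KD in 66cl4 BALB/c tumors (0 to 2208 of all genes), 1 to 4 for the line difference of controls (1038 to 2169), and 0 to 2 for each host difference (325 to 3401 in controls and 969 to 2036 in BPTF KD tumors).

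Some differences changed sign, most of them small. Larger ones were those of *Ogn* (1.26) and *Lum* (0.76) for BPTF KD in 67NR BALB/c tumors. The others were the line difference of the effect for *Ogn* (1.27) and *Dcn* (0.70), and its host difference for *Bgn* (1.15). For BPTF KD in 67NR BALB/c tumors *Aspn* became 0.77 with the replicate block and 0.024 with the integrity covariate, *Fmod* -0.019 with array weights, and *Ogn* -0.65, *Lum* -0.28 and *Fmod* -0.016 without both tumors that stood apart. In 66cl4 BALB/c tumors *Ogn* became 0.04 with array medians and 0.023 with the block, *Aspn* 0.13 with the block, and *Fmod* -0.029 with another quantile normalization. In 66cl4 NSG tumors *Dcn* became 0.0017 with array medians, *Ogn* -0.046 with the mean of all probe sets, *Aspn* 0.13 and *Prelp* -0.0042 with array weights, and *Prelp* -0.49 with the block. For the line difference of the effect array weights gave -0.022 for *Dcn*, -0.23 for *Aspn* and -0.15 for *Fmod*, and leaving out both tumors gave -0.36 for *Dcn*, -0.64 for *Ogn*, -0.51 for *Aspn*, -0.86 for *Lum* and -0.034 for *Fmod*. Array weights also gave -0.094 for *Fmod* and -0.045 for *Bgn* in the host difference of the effect, 0.086 for *Fmod* in the line difference of controls and 0.61 for *Dcn* in the host difference of controls.

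With 1 tumor left out, signs also turned within these ranges. They were -0.62 to 0.40 for *Aspn* and -0.05 to 0.25 for *Fmod* (BPTF KD, 67NR BALB/c), -0.12 to 0.11 for *Ogn* and -0.10 to 0.19 for *Fmod* (66cl4 BALB/c), and -0.89 to 0.56 for *Dcn*, -0.19 to 0.026 for *Aspn* and -0.076 to 0.46 for *Prelp* (66cl4 NSG). For the line difference of the effect they were -0.14 to 0.87 for *Aspn*, -0.35 to 0.62 for *Lum* and -0.11 to 0.23 for *Fmod*, and for its host difference -0.045 to 0.185 for *Ogn* and -0.01 to 0.29 for *Fmod*. For the line they were -0.265 to 0.078 for *Fmod* in controls, and -0.72 to 0.063 for *Dcn* and -0.155 to 0.087 for *Fmod* in BPTF KD tumors, and for the host -0.83 to 0.62 for *Dcn* in controls. The causes were not tested. Same-numbered tumors correlated between -0.451 and 0.268 after group means were removed. Differently numbered tumors were not set beside them, so whether replicate numbers pair the tumors cannot be told, and the block is given only as a setting. Over all genes the count past the threshold for BPTF KD moved between 0 and 1122 in 67NR BALB/c, 0 and 3125 in 66cl4 BALB/c and 0 and 1389 in 66cl4 NSG tumors with the setting, for the line difference between 1548 and 4468 in controls and 1395 and 4561 in BPTF KD tumors, and for the host difference between 0 and 5705 in 66cl4 controls and 579 and 2783 in BPTF KD tumors. The probe set read for *Fmod* lay near the floor of the arrays, where differences are compressed.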
